A study of Mus musculus with 48 samples.

Results

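The conjugating enzymes described here attach glutathione or sulfate to small molecules. The members were the protein-coding genes, in both deposited expression tables, whose symbol begins with Gsta, Gstk, Gstm, Gsto, Gstp, Gstt, Gstz, Mgst or Sult followed by a number. They were 46 of 49585 genes: 22 cytosolic and mitochondrial glutathione transferases, 3 microsomal enzymes (Mgst) and 21 sulfotransferases. The same pattern asks for a number straight after Ugt1, Ugt2 or Ugt3, where the symbols carry a letter, so it took none of the 21 UDP-glucuronosyltransferase (UGT) genes; these are given beside the members as a related set outside the rule.

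The libraries were made from kidneys of mice labelled WT that had received vehicle or D-alanine, the mirror-image form of L-alanine, and were collected at circadian time (CT) 0, 4, 8, 12, 16 or 20 h. Each of the 12 combinations of treatment and time had 4 libraries, so 48 in all, and the series text says that kidneys came from different mice. No source used here gives the dose, route, strain, sex or age. There are 2 deposited tables, and each holds 24 libraries, 2 for every group; the series text speaks of a repeated experiment, and the tables were taken as its runs, which is an inference.

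Glutathione transferases join the tripeptide glutathione to electrophiles, and some also isomerise or reduce their substrates. Sulfotransferases move a sulfate group from the donor PAPS to phenols, steroids and amines, and UGTs move glucuronic acid from UDP-glucuronate to a similar range of acceptors. The kidney tubule carries all of these families, and the products leave the cell through transporters into urine or blood.

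Values are FPKM, fragments scaled to transcript length and to the library's mapped fragments, as deposited. Tests used log2(FPKM + 1) in limma with a table term, over the 14922 genes with at least 1 FPKM in at least 4 libraries, and a gene was called at a Benjamini-Hochberg adjusted p below 0.05. Fold changes are on that scale, which understates the change of low genes. Of the members, 28 passed the filter and 18 did not, 8 of which (Sult2a1, Sult2a2, Sult2a4, Sult2a5, Sult2a6, Sult2a7, Sult3a1 and Sult3a2) were listed at 0 in every library. Depth, recovered from the steps of the low values, was 7626070 to 14403240 fragments a library. The proximal tubule marker Kap stood at 24490 to 64740 FPKM, and none of 4 adrenal cortex markers passed the filter.

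The 2 members called with D-alanine and a rhythmic member are shown by the 250 bases before their RefSeq start sites, because their levels are the ones followed below. The windows (RefSeq, GRCm38.p6) are chr1:21240335-21240584 on the plus strand for Gsta3, chr19:4037913-4038162 on the minus strand for Gstp1 and chr7:126676419-126676668 on the minus strand for Sult1a1. Each is written 5′ to 3′, and capitals mark the antioxidant response element pattern TGACNNNGC.
Gsta3: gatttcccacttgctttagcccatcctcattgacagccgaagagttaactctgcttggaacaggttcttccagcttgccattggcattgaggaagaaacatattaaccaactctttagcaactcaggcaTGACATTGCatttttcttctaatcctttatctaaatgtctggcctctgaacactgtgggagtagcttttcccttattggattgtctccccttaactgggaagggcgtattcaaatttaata
Gstp1: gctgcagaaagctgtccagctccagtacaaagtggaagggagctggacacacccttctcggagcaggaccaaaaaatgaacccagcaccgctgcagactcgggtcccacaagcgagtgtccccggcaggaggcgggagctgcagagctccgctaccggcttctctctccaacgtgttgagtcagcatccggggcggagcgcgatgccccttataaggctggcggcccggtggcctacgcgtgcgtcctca
Sult1a1: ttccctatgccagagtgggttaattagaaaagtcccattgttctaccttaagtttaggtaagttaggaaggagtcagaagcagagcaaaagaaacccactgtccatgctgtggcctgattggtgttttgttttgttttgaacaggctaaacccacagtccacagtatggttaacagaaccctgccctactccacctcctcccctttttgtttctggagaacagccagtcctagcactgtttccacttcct
The pattern begins 121 bases before the Gsta3 start site. In the 300-base promoters (250 bases before to 50 after the start site), searched on both strands, it was found in 4 of the 40 members with an entry (Gsta3, Gstm5, Gstm7 and Mgst1) and in 12.4% of all 32851 promoters. Those 40 members have 52 promoters, of which 4 held the pattern. Here and below a member counts if any of its promoters matches, while the percentages are per promoter. The E-box CACGTG was in none of the 40 and in 7.15% of all promoters. The D-box TTATGNAA was in Gstt1 (3.38% of all), the ROR element NTAGGTCA in Sult1b1 and Sult2a8 (2.59%), and the xenobiotic response element TNGCGTG in Gsta2 and Sult1d1 (5.07%). A site for the liver and kidney factor HNF1 was in 5 members, Sult1d1, Sult2a3, Sult2a4, Sult2a5 and Sult2a6, and in 0.399% of all promoters. The matches of the Sult2a genes lie in closely alike stretches of related genes, so they are not separate cases. Sult2a4, Sult2a5 and Sult2a6 were at 0 in every library, and Sult2a3 averaged 0.049 FPKM. A match describes these letters only.

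In the levels, mu, zeta, theta, pi and alpha class glutathione transferases led the members. Gstm1, a mu class enzyme, had the highest mean, 434 ± 66.3 FPKM in vehicle kidneys (SD, n = 24) and 420 ± 82.1 with D-alanine (SD, n = 24). Gstz1, which acts in tyrosine breakdown as maleylacetoacetate isomerase, stood at 189 ± 32.9 FPKM in vehicle (SD, n = 24), and Gstt2, a theta class enzyme, at 189 ± 55.3 (SD, n = 24). These 2 levels did not differ beyond their spread. Gsta2 followed at 151 ± 53.2, the pi class enzyme Gstp1 at 142 ± 28.3 and Sult1d1, a sulfotransferase of catecholamines and other amines, at 123.1 ± 36.6 FPKM (SD, n = 24 each). The ranges of these 3 overlapped. Between 10 and 100 FPKM stood 12 members. Among them Gstm5 had 88.5 ± 12.8, the microsomal Mgst3 89.5 ± 19.7, Gstt1 63.2 ± 7.95, the mitochondrial and peroxisomal Gstk1 44.3 ± 7.91, Mgst1 19.7 ± 4.40, Gsta4, which conjugates the lipid peroxidation product 4-hydroxynonenal, 18.8 ± 4.16, Sult1c2 17.2 ± 3.85 and Gsto1 15.6 ± 3.08 FPKM in vehicle (SD, n = 24 each).

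By level, the sulfotransferases were mostly of the Sult1 group: its 6 genes summed to 148 ± 41.2 FPKM over all 48 libraries (SD), against 0.749 ± 0.505 for the 9 Sult2 genes and 0.827 ± 0.251 for Sult5a1. Of the 21 sulfotransferases, 6 passed the filter: Sult1a1, Sult1b1, Sult1c2, Sult1d1, Sult2b1 and Sult5a1. The cytosolic estrogen sulfotransferase Sult1e1 was at 0 in 43 of 48 libraries. A gene at 0 is not shown to be silent: at the smallest depth 3 fragments are what a count of 0 still allows. The 7 Gstm genes summed to 580 ± 92.9 FPKM, the 4 Gstt genes to 268 ± 51.7 and the 4 Gsta genes to 179 ± 52.4 (SD, n = 48).

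**Figure D1:**
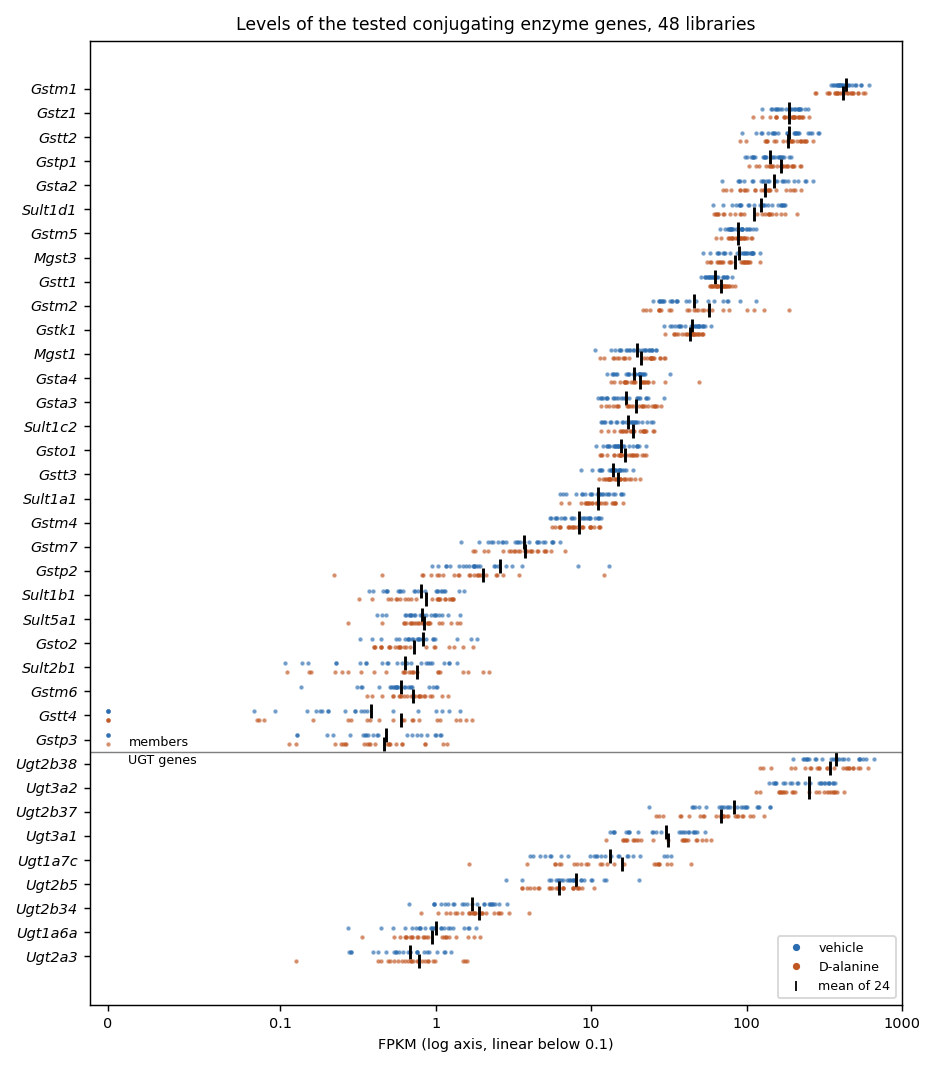
FPKM of the 28 tested members and 9 tested UGT genes (rows) on a log axis that is linear below 0.1; each point is a library, blue for vehicle and orange for D-alanine, and the black bar is the mean of 24. Gstm1 sits at the top with 434 FPKM in vehicle, and the points of the 2 treatments overlap in every row.

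With D-alanine, 2 glutathione transferases rose: Gstp1, the pi class enzyme, and Gsta3, an alpha class enzyme. Gstp1 was 98.2, 140 and 193 FPKM (lowest, median, highest of 24) in vehicle kidneys and 103, 168 and 224 with D-alanine. The ranges overlapped, while in all 12 pairs of time and table the D-alanine mean was the higher. Averaged over the 6 times the difference was 0.23 ± 0.06 (SE) on the log2(FPKM + 1) scale, 1.17-fold, with an adjusted p of 0.0285 (limma, Benjamini-Hochberg). Gsta3 was 11.1, 15.8 and 29.4 FPKM in vehicle and 11.6, 19.5 and 28.2 with D-alanine. Here too the ranges overlapped, and the D-alanine mean was higher in 11 of 12 pairs. The difference was 0.22 ± 0.05 (SE), 1.16-fold, adjusted p = 0.0321 (limma). Each mean of such a pair rests on 2 libraries. Among tested members that were not called, the D-alanine mean was higher in 2 (Mgst3) to 11 (Sult1c2) of 12 pairs. The estimate averaged over times was above 0 for 76.3% of all genes. Over all genes the test called 259, 1.74% of those tested, of which 237 were higher (1.59%) and 22 lower (0.147%); of the members it called 2 higher and 0 lower, and of the UGT genes 0.

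For these genes the deposited tables differed more than the treatments did. In the first table Gstp1 averaged 118 ± 14.9 FPKM in vehicle and 142 ± 22.9 with D-alanine, while the second had 164.9 ± 16.2 and 189.9 ± 20.1 (SD, n = 12 each). Gsta3 went from 13.15 ± 1.63 to 15.87 ± 3.68 FPKM with D-alanine in the first, while the second had 20.3 ± 3.85 and 23.25 ± 2.88 (SD, n = 12 each). Both differences had the same sign in both tables. Within a single table neither gene passed: the adjusted p of each was 0.62 in the first table, and in the second it was 0.101 for Gsta3 and 0.124 for Gstp1 (limma). The test of treatment by table called none of the 28 members and 0% of all genes, with 573 genes and 0 members at an unadjusted p below 0.05.

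At each time, vehicle Gstp1 averaged 143 ± 26.3 FPKM at CT0, 145 ± 24.9 at CT4, 134 ± 21.2 at CT8, 148 ± 34.4 at CT12, 142 ± 34.4 at CT16 and 137 ± 42.7 at CT20 (SD, n = 4). With D-alanine it averaged 165 ± 39.4, 169 ± 37.3, 156 ± 13.6, 169 ± 49.2, 165 ± 30.3 and 172 ± 36.3 FPKM at the same times (SD, n = 4). The excess was thus spread over the day. Gsta3 averaged 17.7 ± 5.92, 17.1 ± 3.64, 14.8 ± 2.07, 15.3 ± 4.15, 16.8 ± 2.21 and 18.7 ± 8.80 FPKM in vehicle from CT0 to CT20 (SD, n = 4). With D-alanine it averaged 19.8 ± 5.77, 17.0 ± 4.81, 17.1 ± 3.37, 17.7 ± 4.72, 21.7 ± 5.11 and 24.1 ± 4.27 FPKM (SD, n = 4). For Gsta3 the estimate went from -0.02 ± 0.13 at CT4 to 0.44 ± 0.13 at CT20 (log2, SE), and the treatment by time test for it gave an adjusted p of 0.965 (limma).

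**Figure D2:**
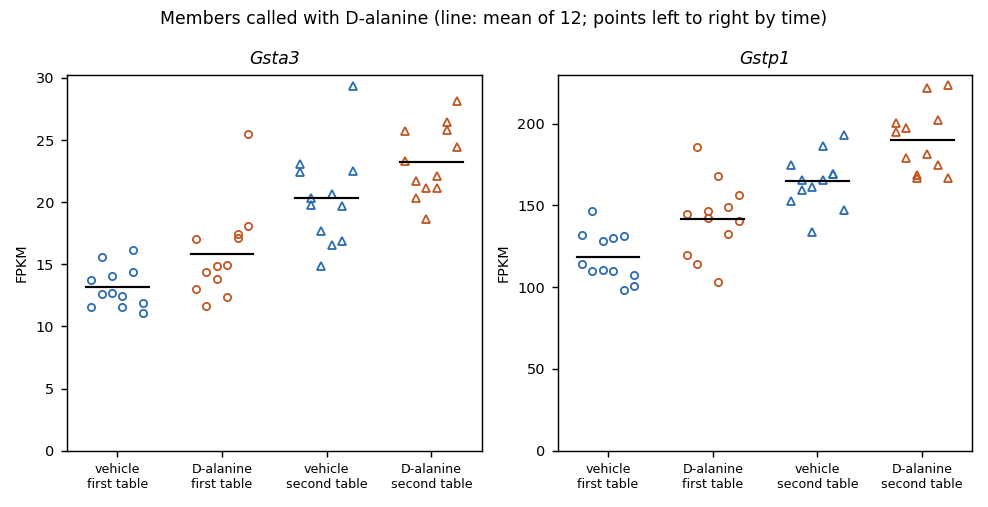
FPKM of Gsta3 and Gstp1 by treatment and table; each point is a library, ordered from left to right by time, and the line is the mean of 12. The D-alanine line is above the vehicle line in both tables for both genes, and the points overlap.

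Other features of the libraries are given here beside these calls. Mitochondrially encoded genes held 35.4 to 47% of summed FPKM in vehicle kidneys of the first table and 28.9 to 46.0% in its D-alanine kidneys; in the second these shares were 16.9 to 23.4% and 14.9 to 19.1%. All 5 urothelium markers (Upk1a, Upk1b, Upk2, Upk3a and Krt5) had estimates above 0, with a median change of 0.51, and none was called. Estimates were also above 0 for 4 of 4 endothelium markers (median 0.25), 3 of 3 fibroblast markers (0.16), 3 of 3 tested adipose markers (0.41), 3 of 3 red blood cell markers (0.11), 2 of 2 tested macrophage markers (0.11) and 4 of 5 inner medulla markers (0.14), none called, beside 76.3% of all genes. Fewer were above 0 for proximal tubule S3 (0 of 5, median -0.04), thick ascending limb (1 of 3, -0.04) and lymphocyte markers (0 of 1 tested, -0.04). Proximal tubule S1 and S2 markers had 3 of 6 above 0 (0.01) and intercalated cell markers 2 of 4 (-0.005). Distal convoluted tubule, podocyte and liver markers had 2 of 3 each, and principal cell markers 3 of 4. None of these markers was called. What part the endothelium, fibroblast, adipose, red blood cell and macrophage markers had in the 2 calls was not tested. The urothelium markers summed to 0.722 to 39.8 in vehicle and 0.725 to 110 FPKM with D-alanine, with Krt5 and Upk3a listed at 0 in 4 libraries each and Upk2 in 1. With the mitochondrial genes taken out of the scaling Gsta3 differed by 0.20 (adjusted p = 0.0915) and Gstp1 by 0.21 (adjusted p = 0.0625, limma). With the urothelium markers as a covariate, chosen after seeing the data, the adjusted p of Gsta3 was 0.0739 and that of Gstp1 0.0657 (limma), at unchanged estimates. With the inner medulla markers as the covariate, or those of the proximal tubule, also chosen after seeing the data, both genes stayed called. Over all genes those fits called 382 and 913, against 53 with the urothelium markers and 259 as reported. Centring each library on its median left Gstp1 at 0.16 (adjusted p = 0.326) and Gsta3 at 0.15 (adjusted p = 0.349), and over all genes it called 3 higher and 20 lower, against 3 and 11 with quantile normalization, 38 and 15 without the mitochondrial genes and 2449 and 30 with TPM (each library rescaled to the same total). In bulk kidney, fewer cells of a type and less RNA per cell cannot be told apart.

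The other 26 tested members did not pass. Over the 28 members the median change was 0.02, with 17 above 0 and 11 below, beside a median of 0.06 over all genes, 76.3% of which were above 0. The nearest to the threshold were Sult1d1, with 123.1 ± 36.6 FPKM in vehicle and 112 ± 42.5 with D-alanine (SD, n = 24; adjusted p = 0.15, limma), Gstt1, with 63.2 ± 7.95 and 68.7 ± 7.30 (adjusted p = 0.154), and Sult1c2, with 17.2 ± 3.85 and 18.7 ± 3.62 (adjusted p = 0.183). With TPM Gstt1 and Sult1c2 passed as well (adjusted p = 0.0173 and 0.0343, limma), but that scaling called 14.2% of all genes, so 4 of 28 members is near its background. Of the UGT genes, Ugt2b5 had 8.00 ± 3.45 FPKM in vehicle and 6.24 ± 1.84 with D-alanine (SD, n = 24; adjusted p = 0.136, limma) and Ugt2b37 82.5 ± 31.1 and 68.6 ± 27.8 (adjusted p = 0.181).

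**Figure D3:**
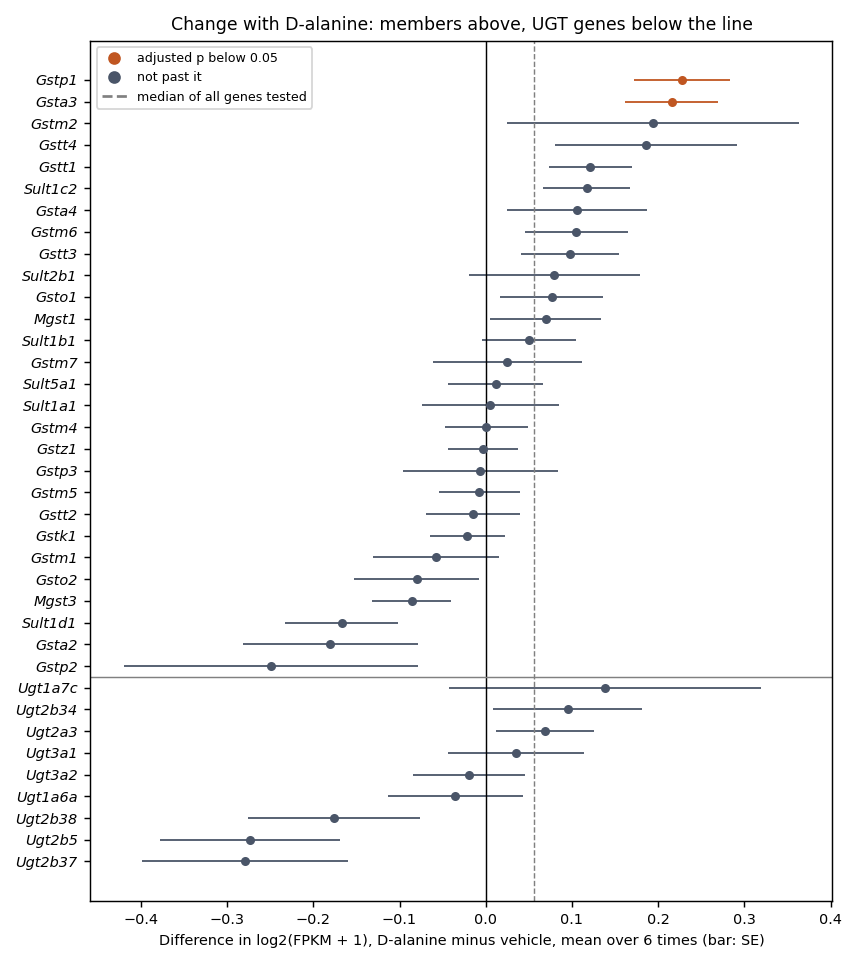
Difference between D-alanine and vehicle in log2(FPKM + 1), averaged over 6 times, for 28 members above the line and 9 UGT genes below it; bars are standard errors and the dashed line is the median of all genes tested. Gstp1 at 0.23 and Gsta3 at 0.22 are the 2 called genes, and the rest lie from -0.28 to 0.19.

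Tested at single times, no member was called. At CT0, where 170 genes were called (1.14%), 0 of 28 members were; at an unadjusted p below 0.05 there were 3281 genes and 0 members. Those with the smallest p, none past the threshold, were Gsto1, Sult5a1, Gstz1, Gstt3 and Gstp1. At CT4, CT8, CT12, CT16 and CT20 limma called 0 genes (0%), while 381, 2215, 338, 708 and 384 genes and 0, 4, 1, 3 and 4 members had an unadjusted p below 0.05. The members with the smallest p, also not past it, were Sult1d1, Gsta4, Gstp1, Gsto1 and Gstm7 at CT4; Gstk1, Sult1d1, Gstt4, Gstt3 and Gstm6 at CT8; Sult1c2, Gstt1, Gstm1, Mgst3 and Gsta3 at CT12; Sult1c2, Gsta3, Gstz1, Gstm5 and Gsta4 at CT16; and Gsta3, Gstp1, Gstp2, Mgst1 and Gstt3 at CT20. The treatment by time test called 0 genes (0%), with 527 genes and 0 members at an unadjusted p below 0.05, and Gstz1, Sult1c2, Gstm5, Gstk1 and Gstp2 had the smallest p. In the treatment by table test these were Gstm5, Gstm1, Sult1d1, Mgst1 and Gstp2. Voom on the recovered fragments also called 0 members in the single-time and interaction tests.

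Over the day, 9 members followed a 24 h cosine in the fit over both treatments: the glutathione transferases Gstt2, Gstt3, Gsta2, Gsta3, Gsta4, Gsto1 and Gstz1 and the sulfotransferases Sult1a1 and Sult1c2. That is 32.1% of the 28 tested, beside 25.9% of all genes (3872), so the share is near the background. Fitted peaks of 6 members lay between CT4.9 and CT11.5 and those of the other 3 between CT15.4 and CT19.9. Among the UGT genes Ugt2b37 and Ugt2b38 passed. The median amplitude, the distance from the fitted mean to the peak on the log2(FPKM + 1) scale, was 0.10 in members and 0.10 over all genes.

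Gstt2 had the largest amplitude. Its lowest, median and highest values in the 8 libraries of a time were 90.6, 123.3 and 153 FPKM at CT0, 187.5, 208 and 236 at CT4, 195, 233.5 and 289 at CT8, 151, 232 and 294.5 at CT12, 137, 182 and 219 at CT16 and 124, 140 and 195 at CT20. Every library of CT4 and CT8 was above every library of CT0. In vehicle it averaged 128 ± 28.0, 205 ± 3.67, 252 ± 30.3, 237 ± 50.9, 172 ± 36.5 and 138 ± 16.8 FPKM from CT0 to CT20 (SD, n = 4). With D-alanine it averaged 114 ± 22.4, 217 ± 22.5, 222 ± 19.4, 221 ± 50.9, 186.5 ± 11.3 and 155 ± 28.3 FPKM (SD, n = 4). The amplitude was 0.47 ± 0.05 (SE), a 1.91-fold range from trough to peak, with the peak at CT9.6 (adjusted p = 1.17e-09, limma). It was 0.51 in vehicle (adjusted p = 1.87e-06) and 0.42 with D-alanine (adjusted p = 6.49e-05). Gstt2 shares under 1% of its 50-base words with other transcripts, and its call for both treatments held in all 16 other settings in which that amplitude was fitted.

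Sult1c2, a cytosolic sulfotransferase of the Sult1 group, was also called in each treatment, although its D-alanine call held in only 7 of 16 other settings (adjusted p up to 0.247). It was 12.1, 15.9 and 20.5 FPKM at CT0 (lowest, median, highest of 8), 15.3, 18.5 and 24.9 at CT4, 17.8, 21.4 and 25.4 at CT8, 13.5, 18.9 and 22.2 at CT12, 11.5, 15.7 and 18.5 at CT16 and 11.6, 16.3 and 22.4 at CT20. CT8 was highest, and its range overlapped that of every other time. Vehicle means ran 15.3 ± 3.62, 18.4 ± 3.03, 22.6 ± 2.37, 17.2 ± 2.57, 13.4 ± 2.05 and 16.4 ± 2.95 FPKM, and D-alanine means 16.5 ± 3.67, 20.3 ± 4.14, 20.8 ± 3.44, 20.6 ± 2.51, 17.1 ± 1.41 and 16.7 ± 4.45 (SD, n = 4). The amplitude was 0.23 ± 0.04 (SE), 1.37-fold from trough to peak, with the peak at CT7.6 (adjusted p = 7.89e-05, limma).

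Sult1a1, the main phenol sulfotransferase, peaked later. It was 6.39, 10.1 and 13.8 FPKM at CT0, 6.30, 9.38 and 14.2 at CT4, 6.92, 9.39 and 11.2 at CT8, 11.2, 13.6 and 16.1 at CT12, 9.75, 10.9 and 15.99 at CT16 and 9.12, 11.9 and 13.9 at CT20 (lowest, median, highest of 8). The CT12 libraries stood at the upper end of all times. Vehicle means ran 9.86 ± 1.96, 9.04 ± 3.02, 9.22 ± 1.83, 13.5 ± 1.87, 13.1 ± 3.16 and 11.97 ± 2.09 FPKM, and D-alanine means 10.1 ± 3.02, 10.04 ± 2.95, 9.63 ± 1.04, 13.5 ± 2.13, 11.4 ± 2.004 and 11.7 ± 1.76 (SD, n = 4). The amplitude was 0.24 ± 0.06 (SE) with the peak at CT15.4 (adjusted p = 0.00379, limma). Sult1a1 overlaps Sgf29 on the other strand, as Gsta3 does Gm28836, Gsto1 Cfap43 and Gstz1 Pomt2, and Gstt3 overlaps Gm20441 on its own strand. These overlaps are of whole gene spans, introns included, and how much of them is exon was not measured. Of the 50-base words of Gstt3, 12.2% occur in Gm20441. No source used here says whether fragments were counted by strand, so reads in exon bases that such pairs share cannot be told apart.

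The alpha class members had later or less certain peaks. Gsta3 was 11.5, 19.7 and 25.7 FPKM at CT0, 11.6, 17.7 and 21.7 at CT4, 12.7, 14.9 and 21.1 at CT8, 11.6, 15.8 and 22.1 at CT12, 14.4, 17.3 and 26.5 at CT16 and 11.1, 23.5 and 29.4 at CT20 (lowest, median, highest of 8), with an amplitude of 0.17 ± 0.04 (SE) and its peak at CT19.9 (adjusted p = 0.00196, limma). Its ranges overlapped at every pair of times. Gsta4 was 14.0, 21.7 and 24.9 FPKM at CT0, 14.04, 17.1 and 21.7 at CT4, 12.7, 17.3 and 22.6 at CT8, 13.9, 18.6 and 21.1 at CT12, 16.8, 19.8 and 49.4 at CT16 and 14.6, 21.2 and 32.4 at CT20 (lowest, median, highest of 8). Vehicle Gsta4 averaged 19.4 ± 3.71, 19.9 ± 1.95, 15.2 ± 2.42, 16.8 ± 3.14, 19.2 ± 1.67 and 22.4 ± 7.39 FPKM, and with D-alanine 22.3 ± 2.99, 15.9 ± 1.26, 19.1 ± 4.13, 19.0 ± 2.68, 27.0 ± 15.2 and 21.1 ± 6.37 (SD, n = 4). Its amplitude was 0.18 ± 0.06 (SE), peak CT19.6, adjusted p = 0.0438 (limma). With the urothelium markers as a covariate, chosen after seeing the data, that amplitude was 0.08 with an adjusted p of 0.284.

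Gsta2, an alpha class enzyme that also reduces organic hydroperoxides, was 70.6, 119 and 224 FPKM at CT0, 73.4, 162 and 267 at CT4, 114, 162 and 239 at CT8, 89.2, 128 and 153 at CT12, 69.9, 104 and 173 at CT16 and 90.7, 126 and 240 at CT20 (lowest, median, highest of 8). Every time overlapped every other. Vehicle means ran 144 ± 61.4, 175 ± 63.5, 191 ± 41.5, 123.3 ± 26.1, 121 ± 42.9 and 149 ± 66.9 FPKM, and D-alanine means 132 ± 68.5, 150 ± 52.9, 143.5 ± 38.2, 124 ± 22.5, 101.0 ± 21.3 and 140 ± 46.6 (SD, n = 4). The amplitude was 0.23 ± 0.07 (SE), peak CT4.9, adjusted p = 0.0448 (limma). Of its 50-base words 49.8% occur in other transcripts, 36% in Gsta1, so fragments of Gsta2 and Gsta1 could have been split between them. The remaining 3 had small amplitudes: Gstt3 0.15 (peak CT8.4, adjusted p = 0.0217), Gsto1, an omega class enzyme that reduces dehydroascorbate, 0.15 (CT7.0, adjusted p = 0.0272) and Gstz1 0.10 (CT11.5, adjusted p = 0.0444, limma). Leaving out single libraries took the call from Gsta2 in 24, Gsta4 in 25 and Gstz1 in 23 of 48 fits, so these 3 sit at the threshold.

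**Figure D4:**
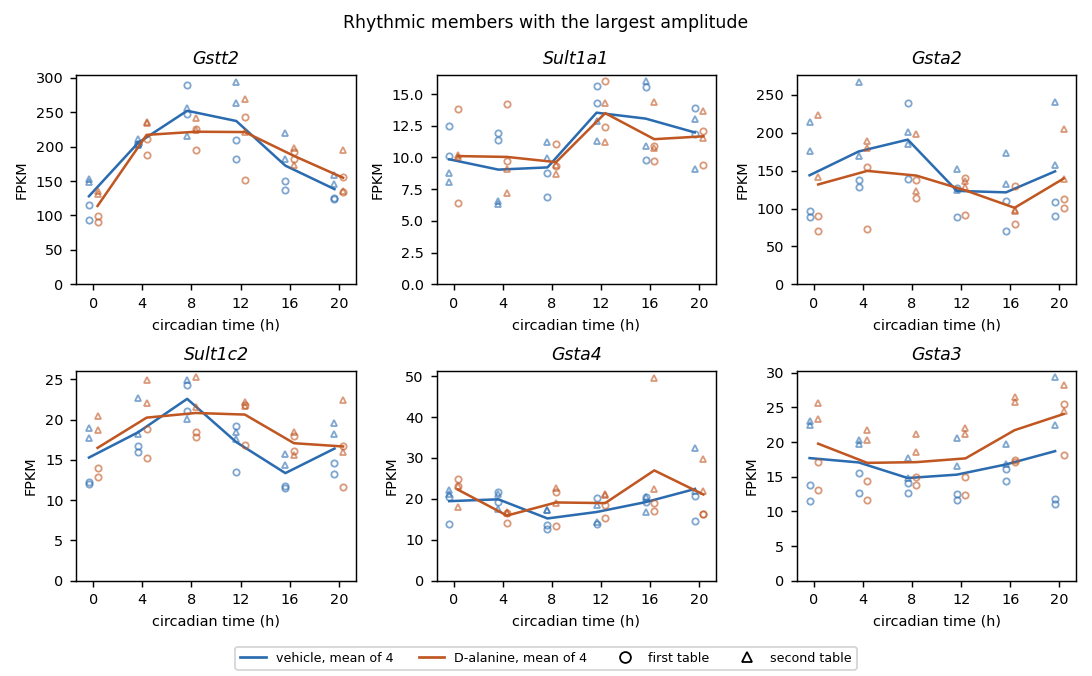
FPKM by circadian time in hours for the 6 rhythmic members with the largest amplitude; points are libraries (circles first table, triangles second table), and lines join the means of 4 in vehicle (blue) and D-alanine (orange). Gstt2 rises from 128 FPKM at CT0 to 252 at CT8 in vehicle, and a D-alanine library of Gsta4 stands alone at 49.4 FPKM at CT16.

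Fitted in vehicle alone, 4 of 28 members passed (14.3%, beside 9.77% of all genes): Gstt2, Sult1c2, Gsto1 with an amplitude of 0.23 (adjusted p = 0.0232, limma) and Sult1a1 with 0.30 (adjusted p = 0.0251). With D-alanine alone, 3 passed (10.7%, beside 8.3% of all genes): Gstt2, Sult1c2 with 0.20 (adjusted p = 0.0375) and Gsta3 with 0.25 (adjusted p = 0.00429). Gsta3 had 0.11 in vehicle (adjusted p = 0.314), Gsto1 0.06 with D-alanine (adjusted p = 0.777) and Sult1a1 0.18 with D-alanine (adjusted p = 0.268). These do not show a difference between treatments. The test of the difference in rhythm called 0 genes (0%), with 353 genes and 0 members at an unadjusted p below 0.05, and the smallest p among members belonged to Gstm5, Gsta3, Gstz1, Gstk1 and Gsto1.

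Among the UGT genes, Ugt2b38 and Ugt3a2 stood as high as the leading members. Ugt2b38 averaged 378 ± 134 FPKM in vehicle and 345 ± 138 with D-alanine (SD, n = 24), and Ugt3a2, of the family that uses sugars other than glucuronic acid, 252 ± 80.6 and 253 ± 95.1. Ugt2b37 averaged 82.5 ± 31.1, Ugt3a1 30.3 ± 13.4 and Ugt1a7c 13.3 ± 8.398 FPKM in vehicle (SD, n = 24). In both treatments together Ugt2b37 had an amplitude of 0.29 ± 0.08 (SE, peak CT8.4, adjusted p = 0.0267, limma) and Ugt2b38 0.23 ± 0.07 (peak CT9.9, adjusted p = 0.0293). Of the 21 UGT genes 9 passed the filter, and Ugt1a8, Ugt1a9, Ugt2a1 and Ugt2a2 were listed at 0 in every library. The Ugt1a genes share their last exons: 53.7% of the 50-base words of Ugt1a7c occur in other transcripts, 37.4% of those of Ugt2b38 and 41.7% of those of Ugt2b5, so levels of single genes there are uncertain.

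Levels of some members moved with marker genes of kidney regions. The relations were chosen after values were seen, and 168 were computed (28 members, 3 marker lists, 2 tables), with p adjusted over all of them. Those followed below had an adjusted p of r below 0.05 and the same sign in both tables. Others passed in 1 table only. Gstt4 against inner medulla markers had r = 0.90 in the first table and 0.45 in the second (permutation adjusted p = 0.00021 and 0.0946). Gstt2 against S1 and S2 proximal tubule markers had 0.76 and 0.15 (permutation adjusted p = 0.00042 and 0.664). Permutations mixed the libraries of all times and treatments within a table. A time of day pattern shared by a member and the markers can therefore enter r and its p. Gstm2, a mu class enzyme, was 27.9, 59.0 and 116 FPKM (lowest, median, highest of 12) in vehicle and 22.6, 65.0 and 189 with D-alanine, all from the first table. In the second it was 25.0, 31.2 and 42.7 FPKM in vehicle and 21.7, 32.0 and 56.8 with D-alanine. It was thus higher and wider in the first table. Against the mean log2 level of 5 inner medulla markers (Slc14a2, Slc5a3, Akr1b3, Fxyd4 and Crym), Gstm2 had Pearson r = 0.94 in the first table and 0.80 in the second, and Spearman rho = 0.91 and 0.73 (n = 24 each). The permutation p of both r was 1e-05, the smallest 100000 permutations can give, with adjusted p of 0.00021, and those of rho 1e-05 and 0.00015. Without the 2 libraries farthest from the median marker level r was 0.92 and 0.75. The markers summed to 29.2 to 700 FPKM in the first table and 30.5 to 130 in the second; Gstm2 was highest, 189 FPKM, in the library with 700.

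Sult2b1, a cholesterol sulfotransferase, overlaps Lmtk3 and Gm45503 on the other strand. That overlap too is of whole gene spans. With the strand setting not given, reads in any exon bases they share cannot be told apart. Sult2b1 moved the same way as Gstm2 at a level of 0.106 to 2.22 FPKM, with r = 0.83 and 0.69 and rho = 0.83 and 0.80 (n = 24 each; permutation adjusted p = 0.00021 and 0.000796 for r). Gsta2 went the other way, r = -0.51 in both tables (permutation adjusted p = 0.0463 and 0.0464), and rho, -0.48 and -0.43, did not pass (permutation adjusted p = 0.0795 and 0.12). Without the farthest 2 libraries r of Gsta2 was -0.40 and -0.39. Against 6 markers of the S1 and S2 proximal tubule Sult1c2 had r = 0.71 and 0.73 (rho = 0.75 and 0.70), Gstm2 r = -0.77 and -0.71 and Sult2b1 r = -0.82 and -0.72, each with a permutation adjusted p of 0.00112 or less. Of these 6 markers 2 were rhythmic over both treatments, as Sult1c2 was. They were Slc34a1 (peak CT9.0, adjusted p = 0.0044) and Slc5a12 (peak CT6.8, adjusted p = 0.0364, limma). What part the shared time of day had in the relation of Sult1c2 was not tested. Gsta4 followed the 5 urothelium markers, r = 0.79 in both tables (rho = 0.74 and 0.63; permutation adjusted p for r = 0.000306 and 0.000735; 0.72 and 0.67 without the farthest 2). Gstm2 and Sult2b1 did so too. The library with the highest Gsta4, replicate 4 of D-alanine CT16 at 49.4 FPKM, also had the highest sum of urothelium markers, 110 FPKM. What part these cells had in the member levels was not tested.

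**Figure D5:**
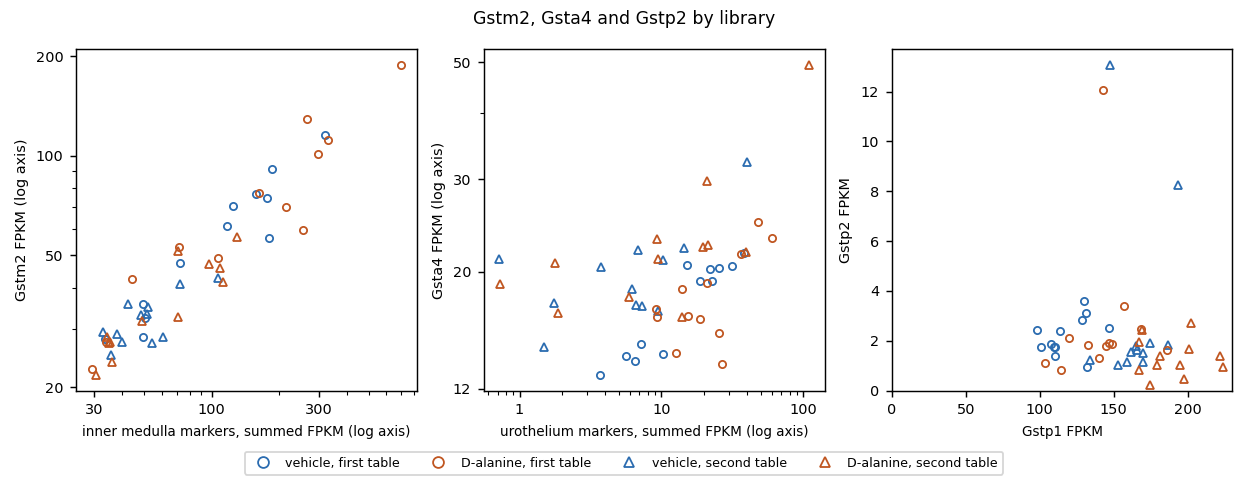
Each point is a library (blue vehicle, orange D-alanine; circles first table, triangles second). Left, Gstm2 against the summed FPKM of 5 inner medulla markers, and middle, Gsta4 against that of 5 urothelium markers, on log axes; right, Gstp2 against Gstp1 FPKM, where 3 libraries stand at 8.24, 12.05 and 13.05 FPKM of Gstp2 and the other 45 at 3.61 or less.

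Gstp2, the neighbour of Gstp1 on chromosome 19 (Gstp2 4040285 to 4042236, Gstp1 4035407 to 4037921, GRCm38, minus strand), had a few values far from the rest. The reading frames of the 2 genes are 630 bases each and differ at 12 positions (98.1% identity). Bases 1 to 90 of each reading frame, from the GENCODE M21 transcripts, show 6 of these differences in capitals, 5′ to 3′, and are printed because reads of the 2 genes can be told apart only where bases differ.
Gstp1: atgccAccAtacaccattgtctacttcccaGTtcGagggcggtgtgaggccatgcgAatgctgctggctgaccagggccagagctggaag
Gstp2: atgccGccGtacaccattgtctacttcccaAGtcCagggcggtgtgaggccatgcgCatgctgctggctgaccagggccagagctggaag
Of the 50-base words of Gstp2, 49.1% occur in Gstp1, and 33.7% of those of Gstp1 occur in Gstp2, so their values are uncertain. Gstp2 was 13.05 FPKM in replicate 3 and 8.24 in replicate 4 of vehicle CT20 and 12.05 in replicate 1 of D-alanine CT8. In the other 45 libraries it was 0.223 to 3.61 FPKM, with a median of 1.74. The 3 high values rest on 158, 110 and 146 recovered fragments, and the others on 3 to 51. Gstp1 in the same 3 libraries, 147, 193 and 142.5 FPKM, lay within its range elsewhere, 98.2 to 224. No other of the 14922 tested genes was higher in all 3 of these libraries than in all 45 others, and none was lower in all 3. With these 3 libraries left out, an alternative chosen after seeing the data, Gsta3 and Gstp1 were still called with D-alanine.

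Genes of glutathione metabolism, of UDP-glucuronate and sulfate supply and use, regulators and other conjugating enzymes were also read. Their lists were chosen with earlier results of these data known, and not all of the listed genes supply the members. With D-alanine, 0 of 8 tested genes of glutathione metabolism, 0 of 4 of UDP-glucuronate supply and use and 0 of 10 of sulfate supply and use were called (limma). Of 10 other conjugating enzymes 0 were called, beside 1.74% of all genes. Of 15 regulators 1 was: Keap1, the adaptor that sends Nrf2 to degradation, with a mean of 10.3 FPKM in vehicle and 11.3 with D-alanine (0.12 ± 0.03 SE, adjusted p = 0.0323, limma). The median change of all genes was 0.06. With median centring the genes called higher went from 237 to 3, and the call of Keap1 under other scalings is not reported here. Nfe2l2, which encodes Nrf2, had 18.4 and 19.8 FPKM (adjusted p = 0.292), and Gclc, the catalytic subunit of the first enzyme of glutathione synthesis, 60.8 and 56.5 (adjusted p = 0.609).

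In the rhythm test of both treatments, 7 of 10 sulfate genes passed, beside 25.9% of all genes. They were Papss2, which makes PAPS, Slc35b2 and Slc35b3, which carry PAPS into the Golgi, the sulfate carriers Slc13a1 and Slc26a1, the phosphatase Bpnt1 and the protein tyrosine sulfotransferase Tpst1. Slc26a1 had an amplitude of 0.27 and a peak at CT5.9 (adjusted p = 0.00132, limma), Slc35b2 0.20 and CT7.5 (adjusted p = 1.26e-06) and Papss2 0.19 and CT10.7 (adjusted p = 0.01). Peaks of 5 of these 7 lay between CT5.9 and CT10.7. In glutathione metabolism 1 of 8 passed, Gsr, which recycles oxidised glutathione (amplitude 0.14, peak CT0.3, adjusted p = 0.000671, limma). In UDP-glucuronate supply and use 1 of 4 passed, the transporter Slc35d1 (0.19, CT10.6, adjusted p = 0.00293, limma). Regulators passed in 10 of 15 cases, with the clock output factors Dbp (2.61, peak CT9.7, adjusted p = 2.82e-26), Tef (0.75, CT10.8) and Hlf (0.39, CT12.7) among them. Of 10 other conjugating enzymes 8 passed, led by the N-acetyltransferase Nat8, which completes mercapturic acids (0.39, CT13.9, adjusted p = 2.91e-07), and the methyltransferase Inmt (0.39, CT11.2, adjusted p = 2.68e-07). Fewer passed in single treatments. In vehicle alone these were 2 sulfate genes, 6 regulators and 5 other conjugating enzymes, beside 9.77% of all genes. With D-alanine alone they were 3, 4 and 4, beside 8.3%. Glutathione metabolism and UDP-glucuronate supply and use had 1 each in vehicle and 0 with D-alanine.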

How the data were processed

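RNA of 48 mouse kidneys (12 groups of 4) was extracted with a column kit and built into SMARTER mRNA libraries (labels' protocols). The authors deposited FPKM per gene in 2 tables, with builds GRCm38 and mm10 per the submitters' processing notes; no source used here gives the aligner, counter or strand setting. Depth was recovered from the steps of low FPKM values (99.841 to 99.974% of values of up to 20 fragments whole within 0.05). Tests used limma 3.58.1 in R 4.3.3 with trend, on log2(FPKM + 1), with 12 group means or a 24 h cosine per treatment, and the table as a term; the procedure was tested on simulated data. Members, lists and the rule for naming genes were chosen with earlier results of these data known: the 2 highest of each subfamily at 1 FPKM or more, every member called, and the 5 with the smallest p where none was. Permutation tests used numpy 2.4.6, with ranks and adjusted p from scipy 1.17.1. Replicates are numbered in sample order and pair nothing. Alternatives were other scalings, filters and covariates, single tables and single libraries left out. Sts was not analysed here. Counts over the exporter list are not reported here.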

Additional observations from a re-analysis of the deposited data

Results flagged for a closer look

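Among 132 groups of 4 or 8 libraries examined for a value far from the rest, 6 held such a value, where chance gives about 1 in 20. Gsta4 at CT16 held 49.4 FPKM in replicate 4 of D-alanine, far above the other 7 libraries of that time, and the same value stood apart in its group of 4. Gsta4 at CT4 with D-alanine held 14.04 FPKM, below the other 3 libraries. Sult1c2 at CT12 with D-alanine held 16.9 FPKM, below the other 3. Gstp2 held 12.05 FPKM in a library of D-alanine CT8 and 3.61 FPKM in a library of vehicle CT12, each above the other 3 of its group.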

How the results depend on the processing

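With D-alanine, 2 members were called (Gsta3 and Gstp1), against 1 without the filter on low values, 4 with TPM (which called 14.2% of all genes, against 1.74% as reported) and 0 with quantile normalization, median centring, rescaling without mitochondrial genes, no table term, the first table alone, the second table alone or the urothelium covariate, and 0 to 2 when single libraries were left out. Gsta3 lost its call without vehicle CT12 replicate 2, vehicle CT20 replicate 2, vehicle CT4 replicate 3 or D-alanine CT12 replicate 4 (adjusted p up to 0.053), and Gstp1 without vehicle CT16 replicate 2, vehicle CT4 replicate 3 or D-alanine CT12 replicate 4 (up to 0.0513); both estimates stayed above 0 in all 17 other settings (0.15 to 0.28 and 0.16 to 0.29). Rhythm in both treatments called 9 members, against 5 with TPM, 4 with no table term, 3 in the first table alone, 5 with times as a factor, and 5 to 11 with single libraries left out (5 without vehicle CT8 replicate 1). Rhythm in vehicle called 4, against 7 with median centring, 1 with no table term, 2 in the first table alone and 2 with times as a factor, and 3 to 5 with single libraries left out. Rhythm with D-alanine called 3, against 5 with quantile normalization, 1 with no table term, 0 in the first table alone and 5 with the inner medulla covariate, and 2 to 4 with single libraries left out. Sult1a1 lost its vehicle call without vehicle CT16 replicate 1 or 4 or CT4 replicate 3 or 4 (adjusted p up to 0.0722), Gsto1 without vehicle CT8 replicate 1 (0.0865), and Sult1c2 its D-alanine call in 8 of 48 such fits. Over all genes the calls ranged from 0 to 2479 for treatment (259 as reported) and from 1754 to 4937 for rhythm in both treatments (3872). The causes were not tested. No pairing of libraries entered any fit. The table by time term was fitted for treatment tests only. Both left-out sets and the urothelium and proximal tubule covariates were chosen after seeing the data. Members under about 1 FPKM rest on few fragments (median 14 for Gstm6, 4 for Gstp3).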

Other observations

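Some values belong to no comparison above. Among the 28 tested members, 19 were higher in the second table, with a median ratio of the second to the first table of 1.2, beside 1.06 over all genes; Sult1d1 was 1.81 times and Ugt3a1 2.36 times as high there, and Gstm2 0.498 times. After group and table, Gstm2 varied with a residual SD of 0.61 on the log2 scale, above 99.4% of the genes nearest in level, and Gstp2 with 0.61, above 94% of them. Among the UGT genes Ugt1a7c had a residual SD of 0.66, above 98.8% of its nearest genes, with values from 1.64 to 43.7 FPKM.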
